A study of Mus musculus with 4 samples.

Results

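The 10 genes described here encode the enzymes that build purine and pyrimidine nucleotides from small precursors, in primary mouse T cells. They were taken by symbol from the gene tables (Cad, Dhodh, Umps, Ppat, Gart, Pfas, Paics, Adsl, Atic and Impdh2), and all 10 were found among the 50600 annotated genes, with 1 row each. The study holds 4 RNA-sequencing libraries of 1 group, primary T cells of the inbred strain C57BL/6NJ, numbered as biological replicates 1 to 4. There is no second group, so the questions addressed were at what level each enzyme gene was transcribed, in what order, and how far the libraries differed. The labels give no culture condition, age or sex and link a protocol for differentiation of CD4+ cells. In every library's table the name of the alignment includes Th0, activated and 24 h, which no label states. The assay title says total RNA, but poly(A)+ RNA is in the name of the protocol linked for library construction.

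All 4 libraries share 1 strain-level donor entry, and no label says that they came from separate animals, so the spread given below is that between libraries and may be in part technical. Xist was at 163 and 150.5 TPM (defined below) in replicates 1 and 2 and at 0.715 and 0.696 TPM in replicates 3 and 4. The Y-linked gene Ddx3y was at 0.0434 and 0.0219 TPM in replicates 1 and 2 and at 38.75 and 39.3 TPM in replicates 3 and 4, a pattern that 1 animal as the source of all 4 libraries would not give. No comparison was made by that split. Gene-assigned fragments summed to between 47558517 and 60102919 in replicates 1, 3 and 4 and to 273136467 in replicate 2. The 7 T-cell marker genes summed to between 3890 and 4200 TPM, with Cd8a the only one below 1 TPM. The 4 B-cell markers summed to between 2.99 and 6.38 TPM. The 5 macrophage and neutrophil markers summed to between 0.267 and 1.16 TPM, with Csf1r and S100a8 at 0 fragments, and the 3 natural killer markers to between 0.298 and 0.903 TPM, with Klrb1c at 0. The 3 red cell markers summed to at most 0.502 TPM. In bulk RNA, fewer cells transcribing a gene and less RNA of it per cell cannot be told apart.

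Cells obtain nucleotides by de novo synthesis or by salvage of bases and nucleosides. The pyrimidine ring is built first and then joined to ribose phosphate, whereas the purine ring is assembled step by step on ribose phosphate until inosine monophosphate (IMP) is reached, from which adenosine and guanosine nucleotides are made. Lymphocytes that leave rest are known to raise de novo synthesis before they divide, and drugs that block DHODH or IMP dehydrogenase are used to restrain them. Several of these proteins carry more than 1 enzyme activity on a single chain.

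Promoter sequences are shown for 5 members because they differ in the short sequence words they share. RefSeq windows from 250 bases before to 50 bases after the annotated start (GRCm38.p6, the assembly behind mm10) were found for 8 of the 10 members, all but Dhodh and Pfas. The word CACGTG, the E-box bound by MYC and other helix-loop-helix proteins, and the word GGGCGG on either strand, the GC box bound by SP and KLF proteins, are in capitals. On the other strand GGGCGG reads CCGCCC. Each sequence runs 5′ to 3′ on the strand of its gene.
Paics, chr5:76951052-76951351, + strand: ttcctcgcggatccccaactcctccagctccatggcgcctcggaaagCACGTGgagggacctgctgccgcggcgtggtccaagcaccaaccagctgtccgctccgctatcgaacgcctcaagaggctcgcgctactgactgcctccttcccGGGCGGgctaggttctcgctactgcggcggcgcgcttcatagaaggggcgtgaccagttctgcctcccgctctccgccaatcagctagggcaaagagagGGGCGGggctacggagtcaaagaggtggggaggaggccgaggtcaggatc
Ppat, chr5:76951529-76951828, - strand: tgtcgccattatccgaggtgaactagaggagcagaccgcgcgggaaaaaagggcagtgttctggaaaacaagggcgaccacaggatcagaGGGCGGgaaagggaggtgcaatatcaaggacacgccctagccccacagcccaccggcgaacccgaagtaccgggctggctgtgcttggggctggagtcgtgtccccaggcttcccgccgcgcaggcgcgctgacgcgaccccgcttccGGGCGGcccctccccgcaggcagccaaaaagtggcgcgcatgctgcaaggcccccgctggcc
Atic, chr1:71556906-71557205, + strand: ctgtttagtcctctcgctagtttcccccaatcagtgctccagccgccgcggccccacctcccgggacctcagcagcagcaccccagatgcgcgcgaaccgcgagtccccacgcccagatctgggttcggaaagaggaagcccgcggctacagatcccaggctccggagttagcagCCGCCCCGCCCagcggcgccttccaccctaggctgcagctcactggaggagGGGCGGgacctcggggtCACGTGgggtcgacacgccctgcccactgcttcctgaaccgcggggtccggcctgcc
Impdh2, chr9:108560186-108560485, + strand: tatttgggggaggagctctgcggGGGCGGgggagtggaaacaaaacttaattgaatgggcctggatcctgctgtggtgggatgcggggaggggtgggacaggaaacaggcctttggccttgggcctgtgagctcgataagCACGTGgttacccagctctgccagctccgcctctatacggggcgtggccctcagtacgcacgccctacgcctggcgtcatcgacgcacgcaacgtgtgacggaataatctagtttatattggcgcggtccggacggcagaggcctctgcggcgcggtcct
Cad, chr5:31054530-31054829, + strand: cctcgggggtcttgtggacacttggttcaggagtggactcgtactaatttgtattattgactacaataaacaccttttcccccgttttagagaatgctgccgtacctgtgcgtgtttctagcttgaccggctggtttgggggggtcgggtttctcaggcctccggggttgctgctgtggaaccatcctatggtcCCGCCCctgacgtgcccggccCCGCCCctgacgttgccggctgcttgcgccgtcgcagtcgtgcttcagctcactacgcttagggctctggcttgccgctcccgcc

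CACGTG was present in 3 of the 8 windows, those of Paics, Atic and Impdh2. It began 203 bases before the start in Paics, 7 bases before it in Atic and 110 bases before it in Impdh2, where the RefSeq start lies 150 bases inside the gene as the count tables annotate it. Among 32851 RefSeq windows of all genes 7.15% held the word, and among the 7978 windows of genes with at least 10 TPM in each library 10.9% did. GGGCGG on either strand was present in all 8 windows, against 35.7% of all windows and 66.4% of those of genes at 10 TPM or more. The matches in Cad began 56 and 35 bases before the start. All 8 windows, at 53.0% to 69.7% GC, were above the median of 52.7% over all windows, and the shares were not matched on GC content. CCAAT on either strand was found in 4 windows, those of Gart, Paics, Atic and Impdh2, against 37.4% of all windows and 38.0% of those of genes at 10 TPM or more. TATAAA on either strand was found in 2, those of Umps and Impdh2, against 13.6% and 6.20%. The match in Umps began 178 bases before the start, and that in Impdh2 lay after the start and on the other strand. GCATGCGC on either strand was found in 1, that of Ppat, against 2.71% and 6.27%. A pair of adjoining GC boxes in Atic, and the CCAAT and TATAAA matches in Impdh2, shared 1 base. These matches describe the letters in the windows only.

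Of the 3 pyrimidine genes, Cad was the highest and Dhodh the lowest in every library. Levels are given in TPM, the fragment count divided by exon length and scaled so that each library sums to 1000000, as mean ± SD over the 4 libraries. Cad, which encodes the large protein that carries out the opening steps from glutamine to dihydroorotate (ENSMUSG00000013629.16, mm10 chromosome 5, 31054780 to 31078479, + strand), had 455, 535, 553 and 509.5 TPM in replicates 1 to 4 (513 ± 42.6, n = 4). Replicate 1 was the lowest library, and the highest was 1.21 times as high. Dhodh, which encodes the mitochondrial enzyme that oxidises dihydroorotate (ENSMUSG00000031730.18, chromosome 8, 109591343 to 109608673, - strand), had 27.8, 33.6, 31.2 and 32.1 TPM (31.2 ± 2.43, n = 4). It was the lowest member in every library, again least in replicate 1. Umps, whose product completes uridine monophosphate (ENSMUSG00000022814.6, chromosome 16, 33954782 to 33967038, - strand), had 247.5, 251, 246 and 246 TPM (247.5 ± 2.51, n = 4). Its 4 values lay within 1.02 times of each other.

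Within each library Cad exceeded Dhodh between 15.9-fold and 17.7-fold and Umps between 1.84-fold and 2.25-fold. On the log2(TPM + 1) scale the differences were 4.00 ± 0.07 and 1.04 ± 0.12 (mean ± SD, n = 4), in 4 of 4 libraries each. These are 2 of 10 gene pairs whose differences were tested by flipping their signs over libraries (an exact permutation test, two-sided), and with 4 libraries p cannot go below 0.125. Both pairs reached that smallest exact p (0.139 when adjusted by Benjamini-Hochberg for the 10 pairs), and no pair could pass a threshold of 0.05. With principal transcript lengths, explained below, Cad exceeded Dhodh 6.09-fold.

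Among the 6 genes from the committed purine step to IMP, Gart and Paics were above the other 4 in every library, and Ppat was the lowest of the 6 in every library. With principal transcript lengths, explained below, Atic (mean of 418 TPM) was level with Gart (417.5) and above the mean of Paics (404). Ppat encodes the amidotransferase of the committed step, a control point inhibited by purine nucleotides (ENSMUSG00000029246.14, chromosome 5, 76913249 to 76951578, - strand). It had 176, 167.5, 163 and 164 TPM (168 ± 5.64, n = 4). Gart, whose product carries out 3 of the early steps (ENSMUSG00000022962.14, chromosome 16, 91621186 to 91646952, - strand), had 514, 547, 539.9 and 526.5 TPM (532 ± 14.6, n = 4). Pfas, the glutamine-using synthase between the Gart steps (ENSMUSG00000020899.15, chromosome 11, 68985697 to 69008460, - strand), had 205, 237, 239.8 and 223 TPM (226 ± 15.95, n = 4). Replicate 1 was the lowest library for Gart and Pfas and the highest for Ppat.

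Paics encodes the bifunctional carboxylase and synthetase that follows (ENSMUSG00000029247.17, chromosome 5, 76951307 to 76967509, + strand). It had 475.5, 472, 442 and 459 TPM (462 ± 15.1, n = 4), least in replicate 3. Adsl, the lyase used once on the way to IMP and again on the branch to AMP (ENSMUSG00000022407.9, chromosome 15, 80948490 to 80970947, + strand), had 189, 194, 194 and 203 TPM (195 ± 5.86, n = 4). Atic, the bifunctional enzyme that closes the ring to give IMP (ENSMUSG00000026192.13, chromosome 1, 71557150 to 71579631, + strand), had 215, 214, 216 and 216 TPM (215 ± 1.22, n = 4). Its coefficient of variation over the 4 libraries, 0.569%, was the smallest of the 10 members. Ppat stood at 0.316 ± 0.018 of Gart within a library (mean ratio ± SD, n = 4), lower in 4 of 4 libraries, a log2(TPM + 1) difference of -1.66 ± 0.08 (exact sign-flip permutation p = 0.125, 0.139 adjusted over the 10 pairs).

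Impdh2 encodes the IMP dehydrogenase isozyme of growing cells, which opens the branch to GMP (ENSMUSG00000062867.13, chromosome 9, 108560286 to 108565584, + strand). It had 385, 401, 395 and 375 TPM (389 ± 11.35, n = 4), with the libraries within 1.07 times of each other. Its level carries a reservation: Impdh2-ps, a processed copy on chromosome 8 (100030558 to 100032102), matched 1545 bases of its transcript at 99.7% identity. Fragments that aligned to both places were not counted. The copy itself was given 541, 2090, 325 and 329 fragments, beside 21040, 97751, 17157 and 16196 for Impdh2. No other member had a match of at least 97% identity over 200 bases outside its own locus. The 10 members together made up 2890, 3052, 3020 and 2954 TPM in replicates 1 to 4. Their median was 237 TPM, beside 23.0 TPM for the 12712 genes that passed the filter on low counts. Dhodh stood at percentile 56.6 of those genes and the other 9 between percentiles 90.3 and 97.9.

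**Figure D1:**
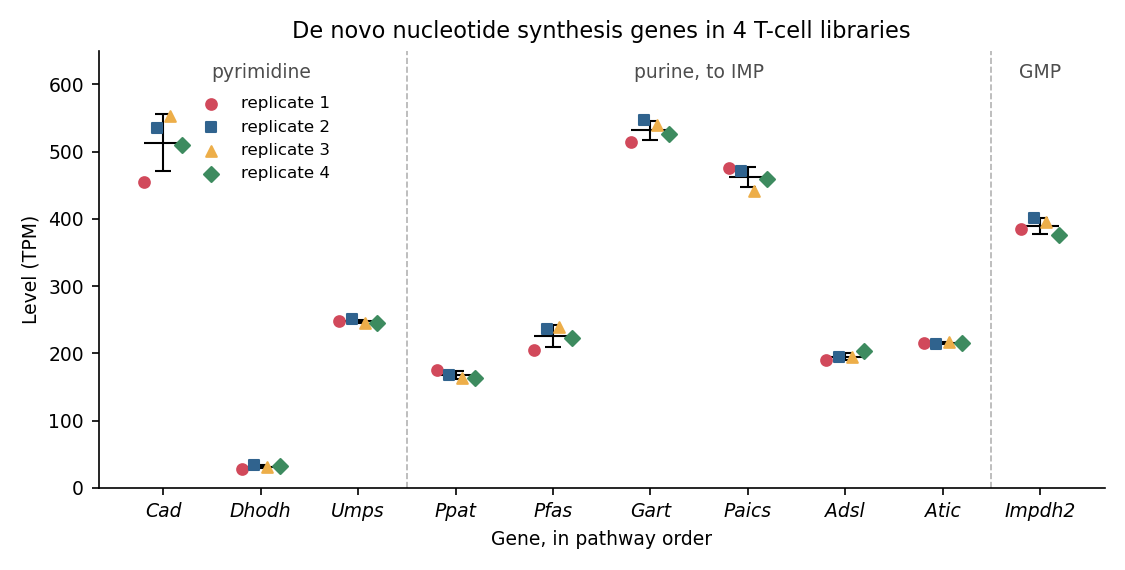
TPM of each member (y axis, linear) in pathway order (x axis), with 1 point per library and the mean ± SD over the 4 libraries as black bars. Dhodh lies near 31.2 TPM and the others at 163 TPM or above, and replicate 1 is lowest for Cad, Dhodh and Pfas.

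The order of the members by mean TPM was Gart, Cad, Paics, Impdh2, Umps, Pfas, Atic, Adsl, Ppat and Dhodh. Impdh2, Umps, Adsl, Ppat and Dhodh kept their rank in all 4 libraries. Gart and Cad differed by 0.05 ± 0.09 and Cad and Paics by 0.15 ± 0.16 in log2(TPM + 1), each in order in 3 of 4 libraries, so those neighbours did not differ beyond their spread. The same held for Pfas and Atic (0.07 ± 0.10). The ranges of the other 6 neighbouring pairs did not overlap, and the widest step, from Ppat to Dhodh, was 2.39 ± 0.15.

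That order depended on the gene length used. The tables give the merged length of every annotated exon, which is 3.10 times the principal transcript for Dhodh and 2.81 times for Atic, but equal to it for Umps. With the length of 1 principal transcript per gene, chosen after the data were seen, Atic stood at 418 ± 2.78 TPM in place of 215, 1.94 times as high, and Dhodh at 66.9 ± 5.18 TPM, 2.15 times as high. The other 8 members moved by between 0.692 and 1.15 times. Impdh2 (446 ± 13.2), Atic, Gart (417.5 ± 11.6), Cad (407 ± 34.1) and Paics (404 ± 12.8) then formed an upper group. Below it came Adsl (205 ± 6.06), Pfas (195 ± 13.85), Umps (171 ± 1.63), Ppat (129 ± 4.29) and Dhodh. Only Ppat and Dhodh kept their rank among the 10, the lowest places, under both lengths. Fragments on exons outside the principal transcript stay in these values.

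**Figure D2:**
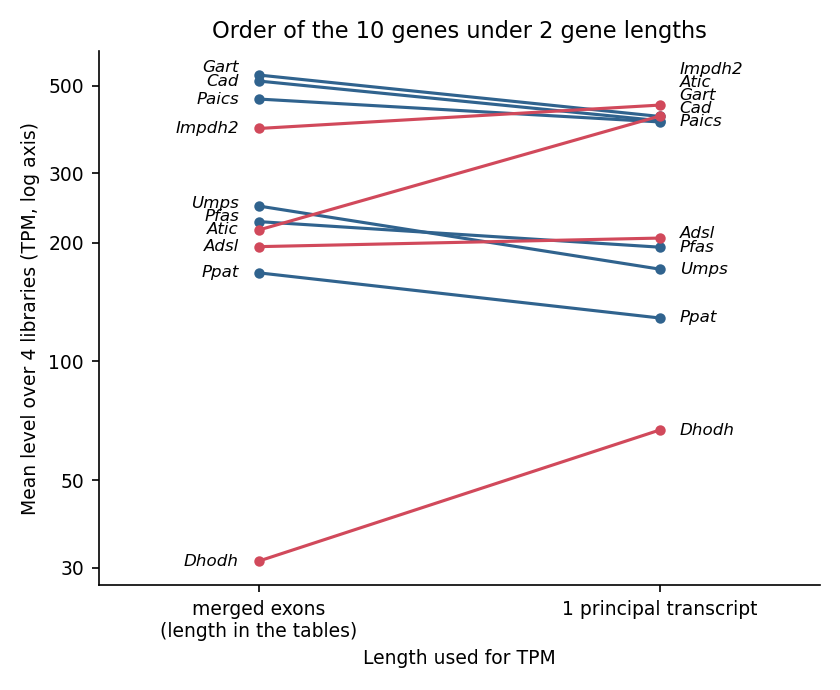
Mean TPM over the 4 libraries (y axis, log scale) of each member with the merged exon length of the tables (left) and with the length of 1 principal transcript (right); red lines rise and blue lines fall. Atic moves from 215 to 418 TPM and Dhodh from 31.2 to 66.9 TPM, while Ppat and Dhodh stay lowest.

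Ppat and Paics are neighbours on chromosome 5 in head-to-head orientation. As annotated in the tables their starts lie 271 bases apart and the genes overlap over 272 bases, which counting by strand can tell apart. Ppat stood at 0.363 ± 0.008 of Paics (mean ratio ± SD, n = 4), with a range over libraries of 0.355 to 0.370. The log2(TPM + 1) difference, -1.46 ± 0.03, had the smallest spread of the 10 gene pairs (exact sign-flip permutation p = 0.125, 0.139 adjusted over the 10 pairs). Members on different chromosomes, outside the 10 pairs, also had small SDs beside its 0.031: Impdh2 and Umps had 0.034, and Atic and Adsl had 0.041. On the same scale Umps stayed between -0.010 and 0.021 from its own mean, and Atic between -0.011 and 0.007. The difference of Umps and Atic, also on different chromosomes, thus varied less than that of Ppat and Paics. Gart has the gene of the splicing protein Son head-to-head, with starts 554 bases apart. Son had 168, 177, 174 and 170.4 TPM (172 ± 4.03, n = 4), and Gart exceeded it by 1.62 ± 0.01 on the log2(TPM + 1) scale. Gart and Son were lowest in replicate 1 and highest in replicate 2, as was Dhodh on chromosome 8. Over 565 head-to-head pairs with both genes at 10 TPM or more throughout, the SD of that difference had a median of 0.102. It was smaller than that of Ppat and Paics in 3.19% of the pairs and smaller than that of Gart and Son in 0% of them. The 565 pairs were not matched to these on level, and the part of gene orientation in the small SDs was not tested. Umps has the noncoding gene Gm15829 within 1 kb on the opposite strand, with at most 0.082 TPM in a library. In all, 4 of the 10 members had a head-to-head neighbour within 1 kb, beside 28.4% of the 8109 genes at 10 TPM or more.

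Isozyme pairs around the members were uneven. Impdh1, the isozyme known for its retinal role, had 159, 184, 166 and 167.5 TPM (169 ± 10.6, n = 4). Impdh2 exceeded it 2.30 ± 0.11-fold (mean ratio ± SD, n = 4), in 4 of 4 libraries. Of the synthases that turn UTP into CTP, Ctps (291 ± 13.4 TPM, n = 4) exceeded Ctps2 (20.6 ± 0.90) 14.2 ± 1.07-fold. Of the synthetases that make phosphoribosyl pyrophosphate, the ribose donor of both pathways, Prps1 (237 ± 16.75 TPM) exceeded Prps2 (130.2 ± 2.55) 1.82 ± 0.12-fold. This last order rests on the division by length, since the difference was -0.09 on the log2 scale of CPM without it.

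Further pairs concern deoxynucleotides and salvage. Rrm2, the ribonucleotide reductase subunit of dividing cells, exceeded the p53-inducible subunit Rrm2b (9.91 ± 1.08 TPM, n = 4) 73.8 ± 7.99-fold. The cytosolic thymidine kinase gene Tk1 (119 ± 8.30 TPM) exceeded the mitochondrial one, Tk2 (18.8 ± 1.78), 6.34 ± 0.25-fold, or 15.4-fold with principal transcript lengths. Each of these 5 differences had the same sign in 4 of 4 libraries (exact sign-flip permutation p = 0.125, 0.139 adjusted over the 10 pairs). The purine salvage genes Hprt (487, 424, 438 and 417 TPM) and Aprt (372, 412, 409 and 417 TPM) differed by 0.13 ± 0.18 (mean ± SD of log2(TPM + 1), n = 4; exact permutation p = 0.25, also after adjustment). Their order turned to -0.79 with principal transcript lengths and -0.19 without division by length.

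**Figure D3:**
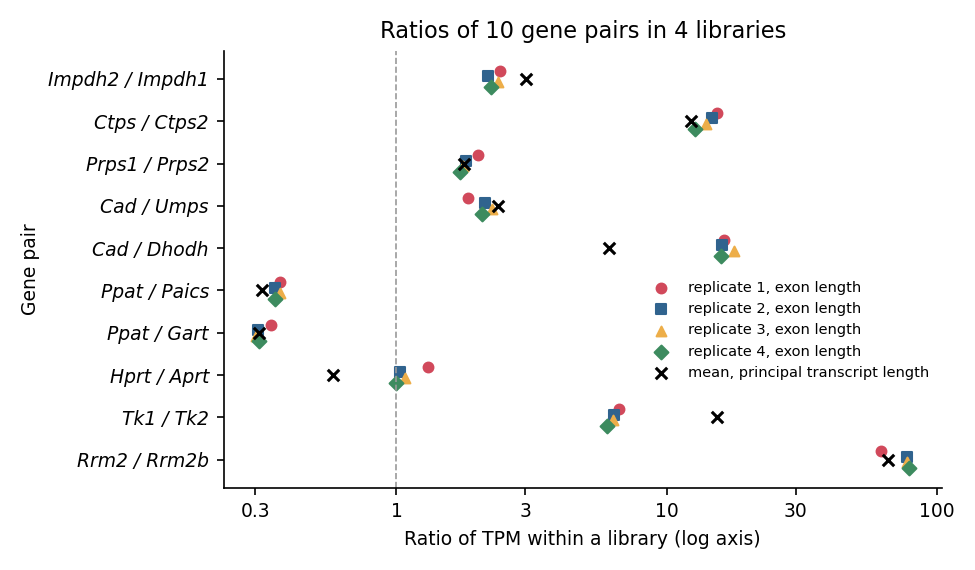
Ratio of the first to the second gene of each pair within a library (x axis, log scale) for the 10 pairs (y axis), with 1 coloured point per library and a cross for the mean with principal transcript lengths; the dashed line marks equal levels. Ppat lies at 0.355 to 0.370 of Paics in all 4 libraries, while Hprt and Aprt change order with the length used.

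Of 73 related genes in 8 lists, 49 reached 10 TPM in all 4 libraries and 15 stayed below 1 TPM in all of them, and their median was 38.3 TPM. Of all 50600 annotated genes 16.0% reached 10 TPM in all 4 libraries, and of the 12712 genes that passed the filter on low counts 63.8% did. Of the 73 related genes 57 passed that filter. Of 5 genes for phosphoribosyl pyrophosphate, 4 were at 10 TPM or more, with Prpsap1, a regulatory partner of the synthetases, at 89.6 ± 1.53. The testis gene Prps1l1 had no fragment, and 3 fragments in the shallowest library would be 0.128 TPM, the upper limit that a count of 0 allows. On the branches from IMP, Adss, which commits IMP to AMP, had 199.9 ± 12.1 TPM, the GMP synthetase gene Gmps had 91.1 ± 4.03, and the muscle isozyme gene Adssl1 had 1.19 ± 0.86.

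Of 16 genes for CTP synthesis and nucleotide kinases, 13 were at 10 TPM or more. Among them were Ctps, given above, and Nme1 (225 ± 11.6 TPM), which lies beside its relative Nme2 (154 ± 6.48). Whether their fragments were divided correctly was not tested. Cmpk2 stayed below 1 TPM. Of 7 deoxynucleotide genes, 6 were at 10 TPM or more, led by Rrm2 at 725 ± 11.4 TPM. Dut, which removes dUTP, had 471 ± 25.8, and Rrm1, the large reductase subunit, had 221 ± 5.67.

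Of 5 measured purine salvage genes, Hprt, Aprt, Adk (adenosine kinase, 152 ± 5.91 TPM) and Ada were at 10 TPM or more, and Pnp was not analysed here. Of 11 genes listed for pyrimidine salvage, 8 were at 10 TPM or more, led by the uridine-cytidine kinase gene Uck2 (243.5 ± 4.68), Tk1 and Dck (deoxycytidine kinase, 115 ± 6.08). The 8 include Dguok (14.2 ± 1.61), whose kinase acts on purine deoxynucleosides. The uridine phosphorylase genes Upp1 and Upp2 and the cytidine deaminase gene Cda were below 1 TPM. Upp1 and Cda had no fragment, with upper limits of 0.109 and 0.207 TPM. Of 18 breakdown genes, 7 were at 10 TPM or more, led by the nucleotidase gene Nt5c (236 ± 12.55), the AMP deaminase gene Ampd2 (139.5 ± 11.6) and Gmpr2 (94.3 ± 6.05), which returns GMP to IMP. Another 7 were below 1 TPM, namely Dpyd, Dpys and Upb1 of pyrimidine catabolism, the urate oxidase gene Uox, the guanine deaminase gene Gda, Ampd1 and Gmpr. No fragment of Dpyd, Dpys, Uox or Gda was counted, with upper limits of at most 0.0704 TPM. Of 7 nucleoside transporter genes, 4 were at 10 TPM or more, led by the equilibrative transporter gene Slc29a1 (243 ± 10.7), Slc29a3 (38.0 ± 2.49) and Slc29a2 (32.2 ± 1.09), and Slc29a4, Slc28a1 and Slc28a3 were below 1 TPM.

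**Figure D4:**
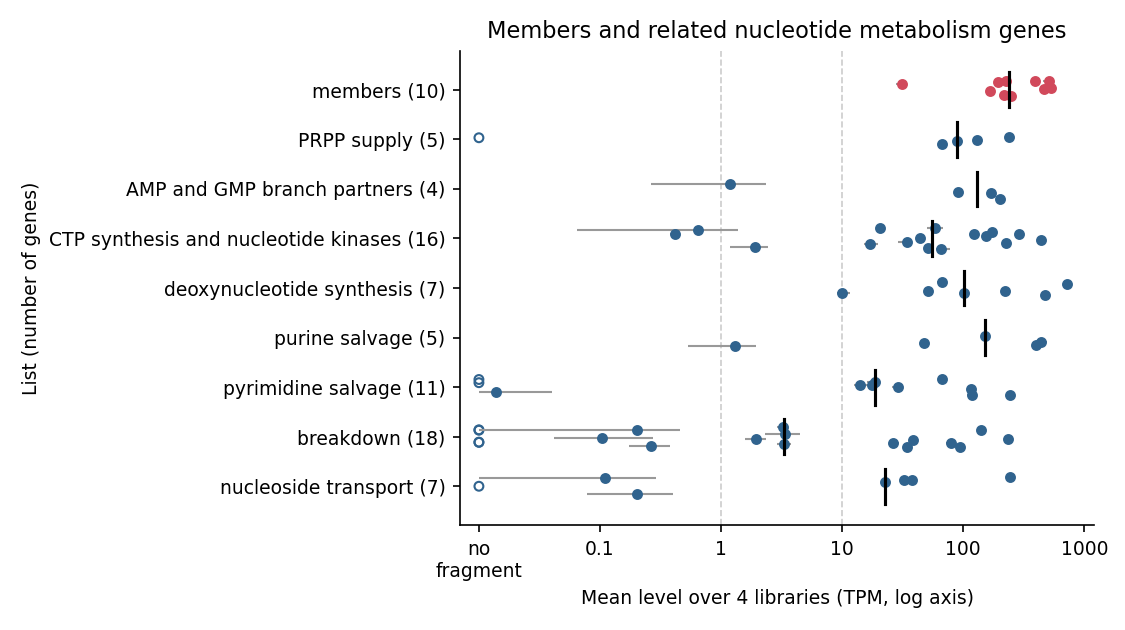
Mean TPM over the 4 libraries (x axis, log scale) of the 10 members and of 73 related genes by list (y axis), with grey lines for the range over libraries, black bars for the list median and open circles for genes without a fragment; dashed lines mark 1 and 10 TPM. The 10 members have a median of 237 TPM, and the breakdown list spreads from no fragment to 236 TPM.

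The spread over libraries differed among the members, with a coefficient of variation from 0.569% for Atic to 8.30% for Cad. Those of Dhodh (7.78%) and Pfas (7.06%) came next below Cad. In edgeR, each gene's deviance was tested against the spread usual for genes of its level in the same 4 libraries. By this test 0 of 10 members passed a Benjamini-Hochberg adjusted p of 0.05, beside 0.362% of all 12712 genes tested (46 genes, 25 without replicate 2 and 862 with a common dispersion). Unadjusted, 0 had a p under 0.05, beside 704 of all tested genes (5.54%). With so few genes called, the count of 0 does not set the members apart, nor does it show that their levels were constant. The common dispersion, fitted over tested genes of every level and not used in the main test, equals a coefficient of variation of 10.1%. That is above the value of every member. The smallest unadjusted p was 0.305, for Dhodh. With DESeq2's dispersion trend 0 members passed as well, and over all alternatives run the smallest adjusted p of a member was 0.925 and the smallest unadjusted p was 0.0563. Of 57 related genes tested 0 passed, and 3 had an unadjusted p under 0.05, near the share of all tested genes: the pyrimidine nucleotide kinase gene Cmpk1, Ak6 and Pnp2. Cmpk1 came closest with 78.2, 66.3, 59.6 and 59.1 TPM in replicates 1 to 4 (edgeR adjusted p = 0.362). The median coefficient of variation over libraries was 3.13% for the members and 5.26% for the 5255 tested genes within their range of mean TPM, which are not matched on level: their median was 73.0 TPM against 237 TPM. Cad, Dhodh and Pfas lay above that 5.26%.

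The deviations of replicate 1 followed the GC content of the transcripts. Cad (57.4% GC), Dhodh (55.7%) and Pfas (53.0%) were lower in replicate 1 than their own 4-library mean by -0.17, -0.15 and -0.14 on the log2(TPM + 1) scale. Gart (53.0%) and Impdh2 (52.4%), close to Pfas in GC content, were lower there by only -0.05 and -0.01. Ppat, with the lowest GC content of the members at 44.1%, and Paics (48.1%) were higher there, by 0.07 and 0.04. Of the members close to Paics in GC content, Umps (48.4%) stood at its own mean there and Adsl (48.75%) was lower, by -0.04. Across the 10 members Spearman's rho between deviation and GC content was -0.964 in replicate 1 and 0.745, 0.867 and 0.188 in replicates 2, 3 and 4, given as a description since the members share libraries. Across 12692 tested genes with a transcript sequence rho was -0.367, 0.089, 0.196 and 0.211. Each deviation is taken from the gene's own mean, so a trend in replicate 1 forces a net opposite trend over replicates 2, 3 and 4. The opposite signs are therefore not separate results. The medians of all tested genes were smaller: in replicate 1, genes of 55% GC or more had a median deviation of -0.08 and genes under 45% had 0.06. The summed pyrimidine genes, Cad included, had 731, 819.9, 830.2 and 787 TPM in replicates 1 to 4, and the summed genes to IMP had 1774, 1830, 1795 and 1792 TPM. The part of GC content in these differences was not tested. After GC and length trends were removed from each library, a step chosen after the data were seen, 0 members passed the test for variation. As 0 had passed before, that count could not test the part of GC content.

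**Figure D5:**
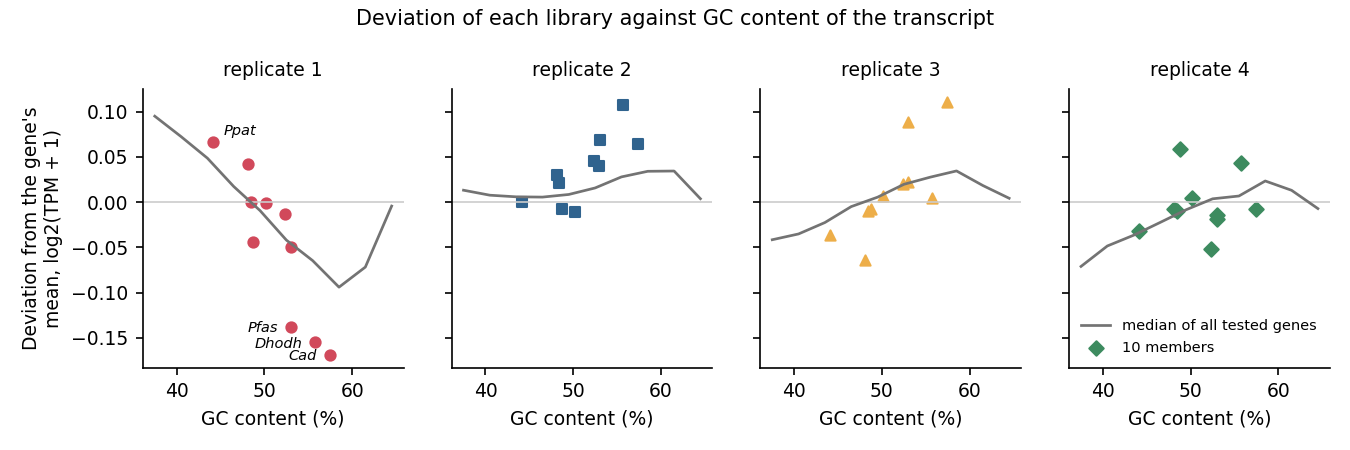
Deviation of each library from the gene's mean over the 4 libraries, on the log2(TPM + 1) scale (y axis), against the GC content of the principal transcript (x axis), for the 10 members (points) and the median of all tested genes in bins of GC content (grey line). In replicate 1 the points fall from 0.07 for Ppat to -0.17 for Cad.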

How the data were processed

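RNA was sequenced in read pairs from 4 libraries of mouse T cells. The deposited values are whole-number counts. They were made with featureCounts 1.4.6-p4, per the file headers, which summed fragments that had both ends mapped over exons by GENCODE vM13 gene, with strand setting 2 (reverse-stranded) and without the options for fragments that align to several places or overlap several genes. The alignments are named as STAR output; its settings are not given in the sources used here. The build is mm10 per the labels. The exon length in the deposited tables is the merged length of the annotated exons, per the file headers.

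Symbols came from GENCODE vM21 by gene identifier without version (50376 of 50600 matched); Pnp found no row. TPM was computed from counts and exon length. Principal transcripts (APPRIS level, then longest coding sequence) and their GC content came from vM21 (224 genes had none and kept the length in the tables). Near copies were sought with blastn 2.17.0. Variation was tested with edgeR 4.0.16 (R 4.3.3) after filterByExpr (minimum count 10) with TMM factors, trended dispersion and residual deviance against chi-square (3 degrees of freedom). P-values of 12712 genes were adjusted by Benjamini-Hochberg at 0.05. The test was checked on simulated data. DESeq2 1.42.0 gave the other size factors and dispersion trend. Python 3.11.15 was used for the rest. A detection floor of 3 fragments allows for counting error alone and treats PCR copies as if they were separate molecules. The members, lists, pairs and tests were chosen with earlier results of these data known. Named genes, a few of which are left out of the text, are the members, the genes of the pairs, the 3 highest and all members below 1 TPM in each related list, and head-to-head neighbours within 1 kb; Cmpk1, Ak6, Pnp2, Ada, Adssl1, Nme2, Dguok, Xist and Ddx3y were named after their values were seen. Alternatives were other scalings, lengths, filters, dispersions and pseudocounts, thinning of replicate 2, and leaving out each replicate.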

Additional observations from a re-analysis of the deposited data

Results flagged for a closer look

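In 3 of 35 sets of 4 values, 1 library lay far from the other 3, by its gap to the nearest value over the whole range; chance alone passes that limit in about 1 in 20 sets. None of the 3 was the TPM of a de novo synthesis gene. Tk2, the mitochondrial thymidine kinase gene, had 16.15 TPM in replicate 1 and between 19.3 and 19.9 TPM in the other 3 libraries. The difference of Rrm2 and Rrm2b on the log2(TPM + 1) scale was 5.834 in replicate 1 and between 6.13 and 6.16 in the others. Without replicate 1 its mean was 6.14 in place of 6.06. Replicate 2 held 273136467 fragments and the others between 47558517 and 60102919.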

How the results depend on the processing

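No paired analysis was possible because all libraries belong to 1 group. Principal transcript lengths and the removal of GC and length trends are alternatives added after seeing the data. The median of the 10 members (237 TPM) became 305 with principal transcript lengths, which left 2 members at their rank, and 69.3 as TMM-scaled CPM per kb, another unit. Without 1 replicate it ran from 234 to 240.3, and all 10 members kept their rank. The difference of Prps1 and Prps2 turned to -0.094 and that of Hprt and Aprt to -0.191 without division by length, and the latter to -0.792 with principal transcript lengths. The other 8 pairs kept their direction under all alternatives run. The 46 varying genes became 862 with a common dispersion (35 of the 46 among them) and 25 to 40 without 1 replicate. Members among them stayed at 0 throughout; related genes numbered 2 with a common dispersion and 0 otherwise. With replicate 2 thinned, 12613 genes passed the filter and 43 varied.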
